A study of Mus musculus with 8 samples.

Results

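The MLL3/MLL4 histone methyltransferase complexes were examined in macrophages with and without Ncoa6, one of their subunits. The listed partner genes were the catalytic subunits Kmt2b, Kmt2c and Kmt2d, the demethylase subunit Kdm6a, the adaptors Paxip1 and Pagr1a, and the shared core genes Wdr5, Rbbp5, Ash2l and Dpy30. They were taken by name and not by their values, although with earlier results of these data known. They were 10 of the 50615 genes in the count table. All 10 were among the 17625 genes with a sum of at least 10 counts over the 8 libraries. The cells were bone marrow-derived macrophages (BMDMs) of C57BL/6 mice, cultured for 6 days with 20 ng/ml M-CSF before RNA-seq. The Ncoa6-KO cells came from Ncoa6 fl/fl LysM CRE mice, in which the Cre recombinase of the myeloid LysM locus removes a floxed exon. Control cells, called Ncoa6-sufficient here and WT in the labels, came from Ncoa6 fl/fl mice, so both genotypes carried the floxed alleles and only the KO mice carried Cre. Cells of each genotype stayed in medium or received LPS (4 h, 100 ng/ml) followed by monosodium urate (MSU) crystals (2 h, 200 µg/ml). There were thus 4 groups of 2 libraries each. The methods state that the cells came from different mice (n = 2 per group). They do not state whether the medium and LPS + MSU libraries of a genotype share mice. The labels give neither the age nor the sex of the mice.

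As background, MLL3 (Kmt2c) and MLL4 (Kmt2d) place monomethylation on lysine 4 of histone H3 (H3K4) at enhancers. Both are assembled on a core of WDR5, RBBP5, ASH2L and DPY30 that all enzymes of this family share, and they alone carry NCOA6, PTIP (Paxip1), PA1 (Pagr1a) and UTX (Kdm6a). UTX removes methyl groups from H3K27, a mark of repression. MLL2 (Kmt2b) is a relative that uses the same core in a complex with menin and does not carry NCOA6. In macrophages, MLL enzymes are known for the H3K4 methylation of enhancers that open after Toll-like receptor stimulation.

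The promoters of the 5 genes with the largest called changes with LPS + MSU in Ncoa6-sufficient cells are shown first. These genes were picked by their response, so their sequences cannot test a link with it. Pagr1a is not among them, since as listed it did not pass. RefSeq windows of GRCm38.p6 were found for 8 of the 10 genes, but not for Kmt2b and Ash2l. Dpy30 had 4 windows, and only the window whose start lay closest to the Ensembl gene start was described. The printed bases lie upstream of both the RefSeq and the Ensembl start, read 5′ to 3′ on the gene's strand, and capitals mark the SP-type GC box (GGGCGG, or its reverse complement on the other strand, with overlapping matches counted separately). The windows are chr5:25498784-25498933 (minus strand) for Kmt2c, chr15:98871206-98871355 (minus) for Kmt2d, chr5:27791692-27791800 (minus) for Paxip1 (whose RefSeq start lies 141 bases inside the Ensembl gene, so that only 109 bases are shown), chr2:27514997-27515146 (plus) for Wdr5 and chr1:132477215-132477364 (plus) for Rbbp5.
Kmt2c: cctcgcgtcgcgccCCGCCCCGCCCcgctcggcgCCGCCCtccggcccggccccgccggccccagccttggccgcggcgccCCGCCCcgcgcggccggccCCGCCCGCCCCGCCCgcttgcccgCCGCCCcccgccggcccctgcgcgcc
Kmt2d: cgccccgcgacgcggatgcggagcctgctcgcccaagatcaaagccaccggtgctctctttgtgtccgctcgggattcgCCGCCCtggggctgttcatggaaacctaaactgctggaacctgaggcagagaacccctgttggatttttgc
Paxip1: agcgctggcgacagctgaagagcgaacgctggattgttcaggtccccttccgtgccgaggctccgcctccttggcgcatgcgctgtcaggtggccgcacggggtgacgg
Wdr5: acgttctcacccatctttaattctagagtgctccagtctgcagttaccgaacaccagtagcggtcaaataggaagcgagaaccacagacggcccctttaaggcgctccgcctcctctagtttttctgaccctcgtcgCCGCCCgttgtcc
Rbbp5: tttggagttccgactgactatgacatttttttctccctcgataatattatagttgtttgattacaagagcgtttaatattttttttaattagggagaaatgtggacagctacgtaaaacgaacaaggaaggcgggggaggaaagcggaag
Over the full 250 bases before the RefSeq start, Kmt2c held 12 GC boxes, Kmt2d 4, Paxip1 2, Wdr5 1, Kdm6a 1 and Rbbp5, Dpy30 and Pagr1a 0. Of all 32851 promoter windows, 32.7% held at least 1. CpG dinucleotides numbered 48 in Kmt2c, 26 in Kmt2d, 22 in Paxip1, 15 in Kdm6a, 12 in Wdr5, 10 in Rbbp5, 8 in Pagr1a and 1 in Dpy30. The median over all windows was 6.0. The NRF1 core letters GCGCATG, found in 3.24% of windows on either strand, were present in Paxip1 and Pagr1a, the genes of the PTIP-PA1 pair. AP-1 letters (TGANTCA, 6.75% of windows), ETS letters (CCGGAAG, 6.91%) and the NF-kB motif (3.90%) had no match in any of the 8 genes. TATAAA (12.4%) had none either, CACGTG (6.02%) was found in Kdm6a and CCAAT (33.8%) in Dpy30. These matches describe the letters and do not show binding.

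The libraries held 25281955 to 33673552 counts, and the 10 genes were covered by at least 234 counts in each library, except Pagr1a, which had 19.1 to 50.2. All 7 macrophage markers were detected and summed to between 8463 and 18538 CPM (counts per 10 to the power 6 TMM-scaled counts) in every library, whereas 4 of the 6 T and NK cell markers were at 0 throughout and the list reached at most 0.0945 CPM. With LPS + MSU, the summed CPM of other marker lists was higher than with medium, namely 104 to 236 against 12.5 to 24.3 for 4 endothelial genes (of which Kdr alone held up to 227.7, and Tek at most 0.238), 70.1 to 79.7 against 26.3 to 34.9 for 6 osteoclast genes, 18.1 to 23.7 against 11.0 to 13.4 for 8 neutrophil genes and 4.77 to 8.41 against 0.616 to 0.844 for 5 dendritic cell genes. Of the osteoclast sum, Mmp9 held up to 43.6 and Acp5 up to 23.3 CPM. Dcstamp was lower with LPS + MSU in Ncoa6-sufficient cells, at 4.16 and 3.71 against 4.94 and 4.69 CPM. In the same cells, 1 of 4 tested endothelial, 1 of 5 osteoclast, 3 of 7 neutrophil and 1 of 4 dendritic cell genes had log2 fold changes below 0. B cell genes reached at most 1.71 CPM and stromal genes 29.4. The part of these cells in the results was not tested. Bulk counts cannot tell fewer cells of a type from less RNA per cell. Ncoa6 itself (chr2:155390656-155473894) had 1515 and 1405 normalized counts in Ncoa6-sufficient cells with medium and 1297 and 1173 with LPS + MSU. In Ncoa6-KO cells the values were 784 and 622 with medium and 563 and 526 with LPS + MSU. Every KO library was below every Ncoa6-sufficient library. The counts span all exons, so they would include transcripts that lack only the floxed exon. The source of the remaining counts was not tested. Ncoa6 fell by 1.05 on the log2 scale with medium (SE 0.117, adjusted p = 0.00236) and by 1.18 with LPS + MSU (SE 0.124, adjusted p = 0.00189), although without the first Ncoa6-sufficient medium library the former had an adjusted p = 0.0578. These and all adjusted p-values below, unless another fit is named, are from edgeR's quasi-likelihood test with Benjamini-Hochberg adjustment over 17625 genes. The spread behind them was estimated within the 4 groups of 2 libraries together and drawn towards that of other genes.

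The next question was how LPS + MSU changed the members. In Ncoa6-sufficient cells 8 of the 10 genes passed the test, against 55.2% of all genes, with 2 higher (24.7% of all genes) and 6 lower (30.5%). In Ncoa6-KO cells 9 of the 10 passed, against 53.1% of all genes, with 2 higher (25.2%) and 7 lower (27.9%). The libraries of the 2 conditions did not overlap for 9 of the 10 genes in Ncoa6-sufficient cells (78.5% of all genes) and for 10 of 10 in Ncoa6-KO cells (76.5%). Most genes of these cells responded, and the members' counts exceeded the background only in some fits. With DESeq2, 5 members were called in Ncoa6-sufficient cells (48.2% of all genes) and 6 in Ncoa6-KO cells (46.5%). With DESeq2 size factors in edgeR it was also 5 (55.1%) and 6 (53.0%). With the stricter low-count filter filterByExpr, 7 (65.8% of the genes kept) and 8 (63.8%) were called. On total counts it was 8 (68.9%) and 8 (67.3%). Without either LPS + MSU library or without the second medium library, 5 were called in Ncoa6-sufficient cells. The members that passed were split between the enzymes Kmt2c and Kmt2d, which were higher, and the others, which were lower. The median log2 fold change of all 10 members was −0.31 and −0.30, against −0.12 and −0.07 over all genes. LPS + MSU shifted the composition of the libraries (TMM factors 1.23 to 1.29 with medium and 0.766 to 0.829 with LPS + MSU). The size and direction of a change therefore depend on the scaling, and this is given with each gene where it matters. On total counts the median gene stood at −0.78 and −0.71, so rises were smaller and falls larger than under TMM scaling.

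Kmt2c (chr5:25271798-25498783) encodes MLL3, the catalytic subunit of one of the NCOA6-containing complexes. Normalized counts were 1182 and 1288 with medium and 2066 and 2319 with LPS + MSU in Ncoa6-sufficient cells. They were 1476 and 1319 with medium and 2576 and 2727 with LPS + MSU in Ncoa6-KO cells. In both genotypes the stimulated libraries were above the unstimulated ones without overlap. The log2 fold change was 0.83 (SE 0.101, adjusted p = 2.97e-05) in Ncoa6-sufficient cells, a 1.78-fold rise, and 0.92 (SE 0.10, adjusted p = 1.29e-05) in Ncoa6-KO cells. Scaled to total counts alone, where the median of all genes moved to −0.78 and −0.71, Kmt2c stood at 0.16 (adjusted p = 0.200) and 0.29 (adjusted p = 0.0277). Relative to the median gene it was 0.94 and 1.00 higher under TMM scaling and 0.94 and 1.00 higher on total counts.

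Kmt2d (chr15:98831669-98871204), which encodes MLL4, the other NCOA6-bearing enzyme, behaved similarly. Its normalized counts rose from 1247 and 1425 to 1944 and 2147 in Ncoa6-sufficient cells. In Ncoa6-KO cells they rose from 1473 and 1282 to 2026 and 2264. No stimulated library fell within the range of the unstimulated ones. The log2 fold changes were 0.61 (SE 0.111, adjusted p = 6.07e-04) and 0.64 (SE 0.110, adjusted p = 4.97e-04), and on total counts they were −0.06 and 0.0056 (adjusted p = 0.684 and 0.968). The rise of Kmt2d is thus a rise relative to other genes (0.73 and 0.71 above the median gene under TMM scaling), not in its share of all counts.

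Kmt2b (chr7:30568858-30588726), which encodes MLL2 of the menin complex, did not rise with them. Ncoa6-sufficient libraries had 1315 and 1388 normalized counts with medium and 1154 and 1212 with LPS + MSU, and Ncoa6-KO libraries had 1322 and 1199.5 against 998 and 1099.7. The stimulated values lay below the unstimulated ones in both genotypes. On total counts the log2 fold change was −0.86 (adjusted p = 1.18e-05) in Ncoa6-sufficient cells and −0.90 (adjusted p = 9.84e-06) in Ncoa6-KO cells. Under TMM scaling it was −0.19 (SE 0.0945, adjusted p = 0.109) in Ncoa6-sufficient cells and −0.27 (SE 0.0949, adjusted p = 0.0347) in Ncoa6-KO cells. The latter call was lost with DESeq2 size factors in edgeR (adjusted p = 0.0819), with DESeq2 (0.176), with only the 4 Ncoa6-KO libraries (0.0855), and without the first LPS + MSU or the first medium library of the KO (0.178 and 0.184).

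**Figure D1:**
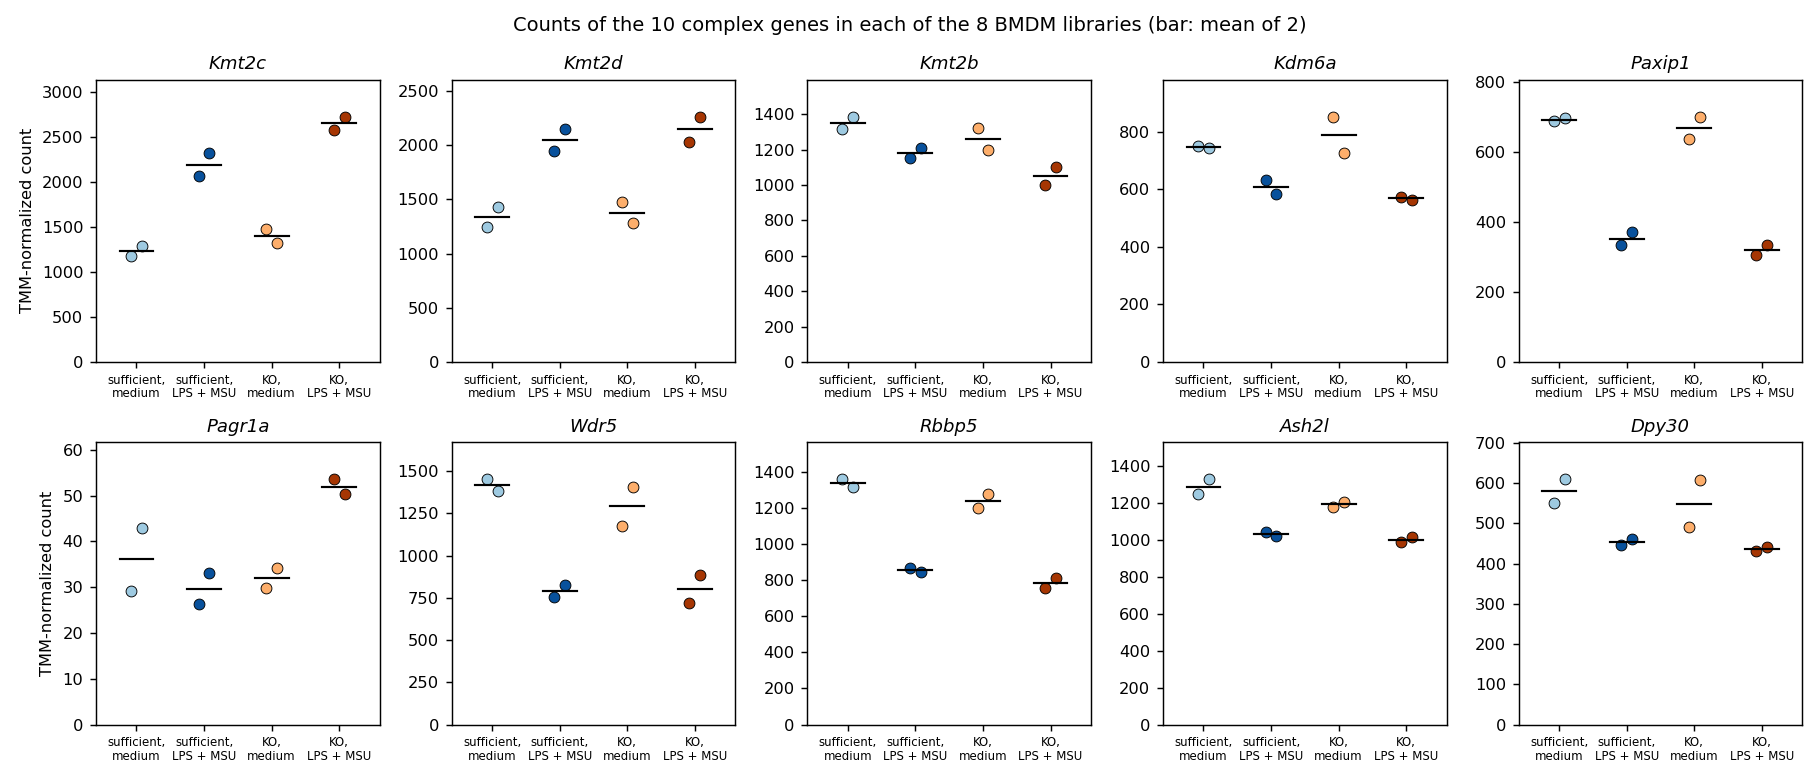
TMM-normalized counts (y axis, from 0) of the 10 genes in the 8 libraries, by genotype and culture condition (x axis). Points are libraries and bars the mean of 2. Kmt2c and Kmt2d were higher in both stimulated groups, Paxip1, Wdr5 and Rbbp5 were lower, and Pagr1a had at most 53.6 normalized counts. On total counts alone, Kmt2d was not higher with stimulation.

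Kdm6a (chrX:18162575-18279936) encodes UTX, the H3K27 demethylase subunit. It had 749.8 and 743 normalized counts with medium and 635 and 583 with LPS + MSU in Ncoa6-sufficient cells. The Ncoa6-KO libraries had 854 and 725 with medium and 575 and 562 with LPS + MSU, again without overlap. On total counts its log2 fold changes were −0.97 (adjusted p = 6.29e-06) in Ncoa6-sufficient cells and −1.11 in Ncoa6-KO cells. Under TMM scaling it fell by 0.29 (SE 0.107, adjusted p = 0.0362) and by 0.47 (SE 0.107, adjusted p = 0.00303) on the log2 scale. The first of these was lost with DESeq2 size factors in edgeR (adjusted p = 0.173), with DESeq2 (0.325) and without any 1 of the 4 Ncoa6-sufficient libraries (adjusted p = 0.0809 to 0.271), whereas no alternative removed the second. Uty, its copy on the Y chromosome, had log2 fold changes of 0.09 (SE 0.105, adjusted p = 0.504) and 0.27 (SE 0.104, adjusted p = 0.0474), but on total counts it stood at −0.58 and −0.36 (adjusted p = 5.19e-04 and 0.0109), so its direction depends on the scaling. The Y-linked genes Uty, Ddx3y, Kdm5d and Eif2s3y had at least 363 counts in every library and Xist had at most 2, so the libraries did not differ in X chromosome number by these markers.

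Paxip1 (chr5:27740080-27791691) encodes PTIP, an adaptor of the NCOA6-containing complexes that also acts in the response to DNA damage, and it had the largest fall of the 10 genes as listed. Normalized counts were 687 and 696 with medium against 332 and 370.5 with LPS + MSU in Ncoa6-sufficient cells. They were 635 and 701 against 306 and 333 in Ncoa6-KO cells. The highest stimulated library thus lay far below the lowest unstimulated one. Paxip1 fell to 50.9% of its medium level in Ncoa6-sufficient cells (log2 fold change −0.98, SE 0.110, adjusted p = 1.65e-05). In Ncoa6-KO cells it fell to 47.8% (log2 fold change −1.06, SE 0.111, adjusted p = 9.35e-06).

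Pagr1a (chr7:127015033-127017352) encodes PA1, the partner of PTIP, and its counts could not be separated from those of overlapping genes. Of its 1430 exonic bases, 98.7% also belong to Gm42742 and 24.3% to Pagr1b on the same strand. The table gave Pagr1a 292 counts over all libraries and Gm42742 3917, so Pagr1a held 3.94% to 14.9% of the sum over the locus in each library. As listed, Pagr1a had 29.3 and 43.0 normalized counts with medium and 26.3 and 33.1 with LPS + MSU in Ncoa6-sufficient cells, which overlapped. In Ncoa6-KO cells it had 29.9 and 34.2 against 53.6 and 50.4, and neither difference passed the test (adjusted p = 0.493 and 0.0704), although the latter did with a replicate block within each genotype (adjusted p = 0.0383). On total counts, where the median gene stood at −0.78, listed Pagr1a was called lower in Ncoa6-sufficient cells (log2 fold change −0.94, edgeR adjusted p = 0.0221). The sum over Pagr1a, Gm42742 and Pagr1b, an alternative added after seeing the data, gave another picture. It went from 750.4 and 705 to 321 and 278 normalized counts in Ncoa6-sufficient cells, and from 555 and 576 to 361 and 371 in Ncoa6-KO cells. That is a fall by 1.28 (SE 0.111, adjusted p = 1.88e-06) and by 0.63 (SE 0.109, adjusted p = 5.08e-04) on the log2 scale. The summed locus was therefore lower with LPS + MSU in both genotypes while Pagr1a alone in Ncoa6-KO cells was not.

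**Figure D2:**
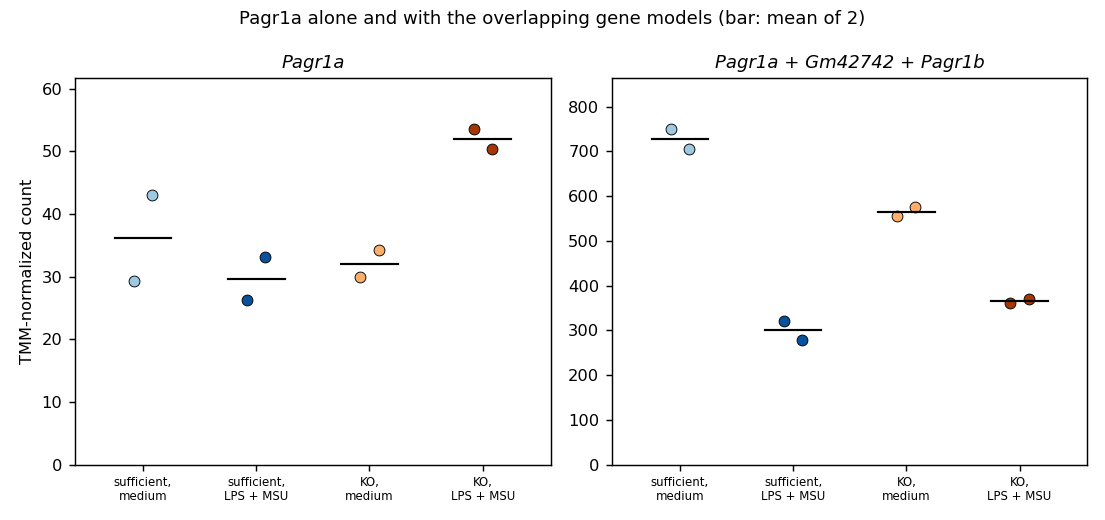
TMM-normalized counts (y axes, from 0) of Pagr1a as listed (left) and of Pagr1a, Gm42742 and Pagr1b summed (right) in the 8 libraries, by genotype and culture condition (x axis). Points are libraries and bars the mean of 2. The summed locus fell from 750.4 and 705 to 321 and 278 in Ncoa6-sufficient cells, while Pagr1a alone showed no such fall under this scaling. On total counts Pagr1a alone stood at a log2 fold change of −0.94 in these cells.

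All 4 genes of the shared core were lower with LPS + MSU in both genotypes, but by unequal amounts. Wdr5 (chr2:27515157-27536535), whose product binds the enzymes and holds the core together, had 1452 and 1382 normalized counts with medium and 752 and 824 with LPS + MSU in Ncoa6-sufficient cells. In Ncoa6-KO cells it had 1175 and 1408 against 721 and 886. It fell by 0.85 (SE 0.123, adjusted p = 1.25e-04) and by 0.68 (SE 0.123, adjusted p = 6.48e-04). Rbbp5 (chr1:132477365-132505659), the subunit that with ASH2L stimulates the enzymes, went from 1359 and 1314 to 869 and 847 in Ncoa6-sufficient cells. The Ncoa6-KO values went from 1199 and 1275 to 759 and 813. Its falls were 0.64 (SE 0.0887, adjusted p = 8.56e-05) and 0.65 (SE 0.0891, adjusted p = 8.02e-05). Neither gene overlapped between conditions, and their calls held under every alternative tried.

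Ash2l and Dpy30, whose products bind each other, fell less. Ash2l (chr8:25815996-25847694) had 1251 and 1331 normalized counts with medium and 1045 and 1020.5 with LPS + MSU in Ncoa6-sufficient cells. The Ncoa6-KO values were 1181 and 1207 against 991 and 1017. Dpy30 (chr17:74299474-74323944) went from 552 and 609.9 to 447 and 461 in Ncoa6-sufficient cells, and from 492 and 608 to 433 and 441 in Ncoa6-KO cells. Stimulated and unstimulated libraries were separate for both genes. Ash2l fell by 0.32 (SE 0.0853, adjusted p = 0.00748) and 0.25 (SE 0.0854, adjusted p = 0.0286), and Dpy30 by 0.35 (SE 0.123, adjusted p = 0.0298) and 0.33 (SE 0.123, adjusted p = 0.0421). These 4 changes grew or shrank with the scaling. On total counts they were −0.99 and −0.88 for Ash2l and −1.02 and −0.97 for Dpy30 (adjusted p = 1.69e-06 to 5.33e-05). None of the 4 passed with DESeq2 size factors in edgeR (adjusted p = 0.0564 to 0.119) or with DESeq2 itself (0.150 to 0.238). Leaving out 1 library also removed them. In Ncoa6-sufficient cells the adjusted p was 0.059 to 0.0879 for Ash2l and 0.124 to 0.179 for Dpy30 without either LPS + MSU library or the second medium library. In Ncoa6-KO cells it was 0.0604 to 0.109 for Ash2l without any 1 of the 4 libraries, and 0.122 to 0.302 for Dpy30 without either LPS + MSU library or the second medium library.

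**Figure D3:**
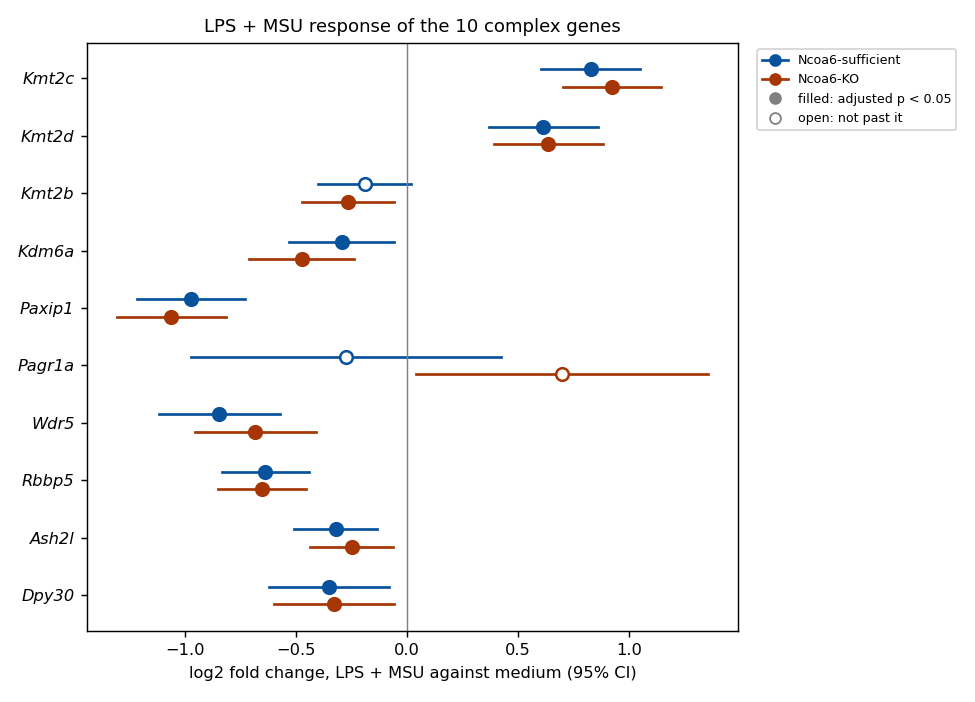
Log2 fold change of LPS + MSU against medium (x axis, edgeR with TMM scaling) for the 10 genes (y axis) in Ncoa6-sufficient and Ncoa6-KO BMDMs. Lines are 95% confidence intervals, filled points have an adjusted p under 0.05 and open points do not. Kmt2c and Kmt2d lie right of 0 and Paxip1, Wdr5 and Rbbp5 left of it in both genotypes, while on total counts alone Kmt2d stood at −0.06 and 0.0056.

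The ratio of 2 genes within a library needs no scaling between libraries, so the members were also set against Kmt2d as counts per kilobase of merged exons. With medium, Paxip1 was at 0.837 to 1.07 times the level of Kmt2d over the 4 libraries of both genotypes. With LPS + MSU it was at 0.285 to 0.335 times. Wdr5 went from 4.42 to 6.45 times with medium to 1.97 to 2.17 times with LPS + MSU, and Rbbp5 from 4.13 to 5.53 times to 1.82 to 2.27 times. Dpy30 (5.80 to 8.24 against 3.39 to 4.00), Ash2l (1.78 to 2.23 against 0.998 to 1.19), Kmt2b (1.86 to 2.19 against 1.01 to 1.23) and Kdm6a (1.24 to 1.43 against 0.591 to 0.776) were likewise lower relative to Kmt2d, with no overlap. Kmt2c went the other way, from 0.887 to 1.01 times to 1.04 to 1.25 times, and Pagr1a overlapped between conditions (0.283 to 0.421 and 0.189 to 0.369). Of the other 9 members, 7 were thus lower relative to Kmt2d in each of the 4 stimulated libraries than in any unstimulated one, against 52.1% of all genes. Because Kmt2d itself lay 0.73 and 0.71 above the median gene in its response, a gene that followed the median is also lower on this scale, so the ratios describe the list and do not by themselves show a fall of these genes.

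**Figure D4:**
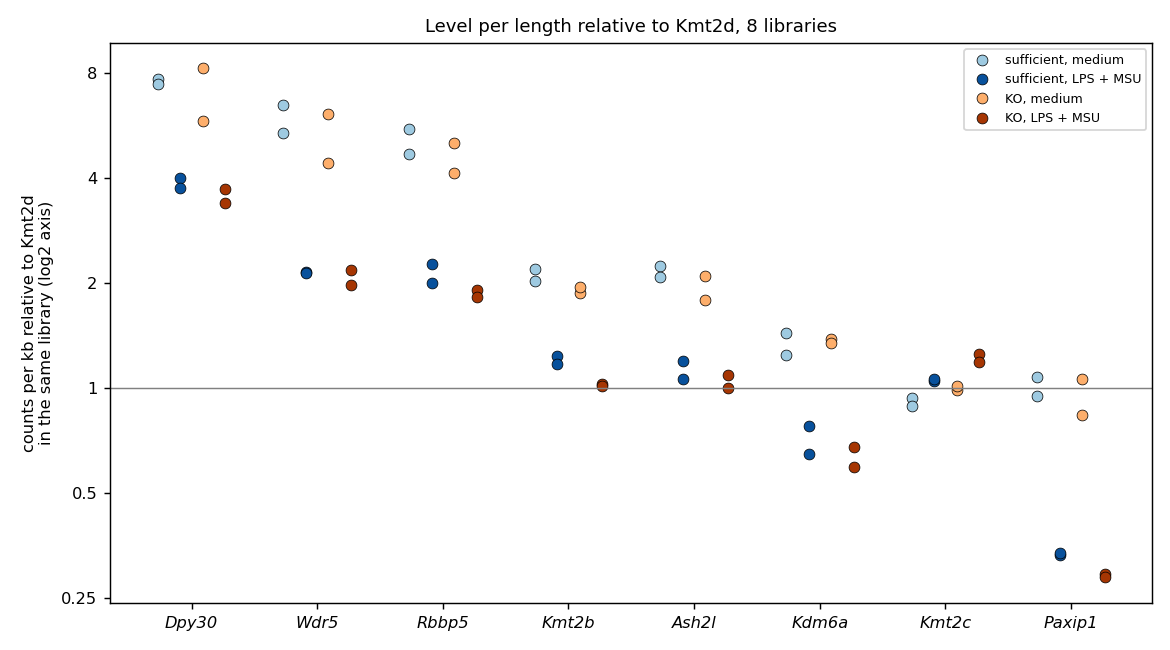
Counts per kilobase of 8 genes relative to Kmt2d in the same library (y axis, log2 scale), with a grey line at 1. Each point is 1 of the 8 libraries, coloured by genotype and culture condition. For each plotted gene but Kmt2c the stimulated libraries lie below the unstimulated ones, and Paxip1 went from 0.837 to 1.07 down to 0.285 to 0.335.

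The knockout comparison asked whether loss of Ncoa6 was accompanied by a change in its partners. None of the 10 genes passed the test with medium (1.88% of all genes did), with LPS + MSU (3.59%) or averaged over both conditions (8.3%). At an unadjusted p under 0.05 these comparisons held 12.8%, 17.4% and 21.8% of all genes, and among the 10 genes they held none, 2 (Kmt2c and Pagr1a) and 1 (Kmt2c). DESeq2 also called none of the 10 in these comparisons. The median log2 fold change of the 10 was −0.09 with medium and −0.05 with LPS + MSU, against −0.03 and 0.00039 over all genes. The summed macrophage markers were lower in the knockout, at 8463 to 9777 against 13149 to 15383 CPM with medium and 12218 to 12955 against 16523 to 18538 with LPS + MSU. Most of this was Lyz2, the LysM locus that carries Cre in the KO mice, at 4349 and 3818 against 9276 and 7156 CPM with medium. The other 6 markers summed to 5429 and 4645 against 6107 and 5993 with medium and to 8543 and 8015 against 9322 and 9113 with LPS + MSU. Of the 7, 2 passed in each condition, Lyz2 and Cd14 with medium and Lyz2 and Itgam with LPS + MSU, and their part in the members' values was not tested.

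Among the enzymes, Kmt2c stood highest in the knockout. Both KO libraries were above both Ncoa6-sufficient libraries in each condition. With medium, 3 of the 10 genes did not overlap between genotypes (Kmt2c higher, Rbbp5 and Ash2l lower), against 43.1% of all genes in either direction. With LPS + MSU, 7 of 10 did not overlap (Kmt2c and Pagr1a higher, Kmt2b, Kdm6a, Rbbp5, Ash2l and Dpy30 lower), against 47.4% of all genes, although on total counts Ash2l and Dpy30 had fitted changes above 0 (0.032 and 0.014). The log2 fold change was 0.18 (95% confidence interval −0.04 to 0.40, adjusted p = 0.518) with medium and 0.27 (0.05 to 0.49, adjusted p = 0.182) with LPS + MSU. Averaged over both conditions it was 0.23 (0.07 to 0.38, adjusted p = 0.0776). It passed the threshold for that average with total-count scaling (0.0407) without a filter on low counts (0.0492) and with a replicate block (0.0285), at effects of 0.28, 0.23 and 0.23. It did not pass when any 1 library was left out. Kmt2d differed by 0.05 (−0.20 to 0.29) and 0.07 (−0.18 to 0.31), and Kmt2b by −0.10 (−0.30 to 0.11) and −0.17 (−0.39 to 0.04).

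For Paxip1 the intervals were −0.28 to 0.18 with medium and −0.40 to 0.12 with LPS + MSU, and for Kdm6a −0.15 to 0.31 and −0.34 to 0.15. The core genes had averaged differences from −0.12 (Rbbp5, −0.26 to 0.02) to −0.05 (Wdr5, −0.25 to 0.14), with Ash2l at −0.08 (−0.21 to 0.06) and Dpy30 at −0.07 (−0.26 to 0.12), and on total counts Wdr5 was at 0.0011. Each of these intervals includes 0, and changes beyond the bounds lie outside the 95% intervals under TMM scaling. The bounds are not limits of what 2 libraries per group could detect. Pagr1a had the widest intervals, −0.82 to 0.48 with medium and 0.10 to 1.51 with LPS + MSU (adjusted p = 0.221). Its summed locus was at −0.36 (−0.59 to −0.14, adjusted p = 0.119) with medium and 0.29 (0.03 to 0.54, adjusted p = 0.230) with LPS + MSU.

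**Figure D5:**
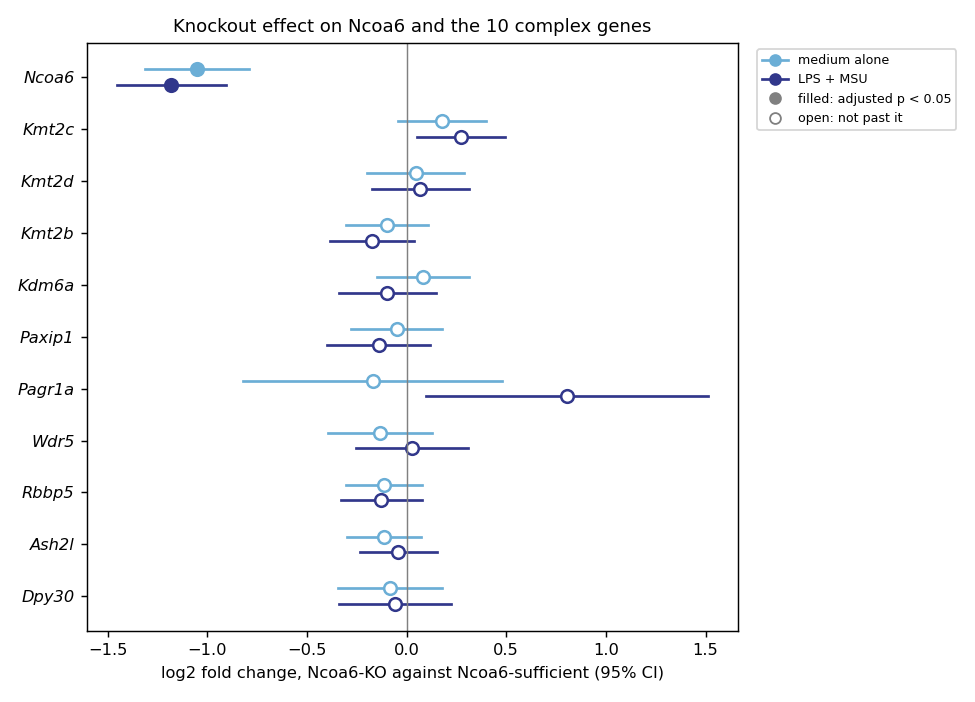
Log2 fold change of Ncoa6-KO against Ncoa6-sufficient BMDMs (x axis, edgeR with TMM scaling) for Ncoa6 and the 10 genes (y axis), with medium and with LPS + MSU. Lines are 95% confidence intervals, filled points have an adjusted p under 0.05 and open points do not. Ncoa6 is the only filled gene, at −1.05 and −1.18.

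The difference between the genotypes in their response was tested as an interaction. None of the 10 genes, and 0 of all 17625 genes, passed with edgeR, 5.93% of all genes had an unadjusted p under 0.05, and DESeq2 called 43 genes, none of them a member. Other edgeR fits called 269 genes without a filter on low counts, 86 with a replicate block across all groups and 444 with a block within each genotype, so the count of 0 over all genes depends on the fit. The interaction was 0.09 (95% confidence interval −0.22 to 0.41) for Kmt2c, 0.02 (−0.32 to 0.37) for Kmt2d, −0.09 (−0.43 to 0.26) for Paxip1, 0.16 (−0.22 to 0.55) for Wdr5 and −0.01 (−0.29 to 0.26) for Rbbp5. The most divergent value was that of Pagr1a, 0.98 (0.01 to 1.94, unadjusted p = 0.0473, adjusted p = 0.833). Its summed locus gave 0.65 (0.31 to 0.99, unadjusted p = 0.00158, adjusted p = 0.442), which did not pass over all genes.

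Levels were compared between genes as CPM per kilobase of merged exons. In Ncoa6-sufficient cells with medium, Dpy30 was highest at 17.3 ± 1.23 (SD, n = 2), followed by Wdr5 at 13.4 ± 0.469 and Rbbp5 at 11.6 ± 0.280. Ash2l (4.91 ± 0.214) and Kmt2b (4.80 ± 0.182) did not differ beyond their spread, and Kdm6a followed at 3.04 ± 0.0188. Kmt2d (2.29 ± 0.216) did not differ from Paxip1 (2.29 ± 0.0215) or Kmt2c (2.07 ± 0.126) beyond its spread, the libraries of Paxip1 lay above those of Kmt2c, and Pagr1a was lowest at 0.862 ± 0.232. The core subunits Dpy30, Wdr5 and Rbbp5 were thus above every enzyme of the list. With LPS + MSU the order changed in the lower part: Kmt2c reached 3.68 ± 0.301 and Kmt2d 3.50 ± 0.246, above Kdm6a (2.47 ± 0.149), while Paxip1 dropped to 1.17 ± 0.0891. Ncoa6 was at 5.11 ± 0.272 and 4.32 ± 0.305. These levels depend on the exon length used, since with the longest coding transcript Ash2l came to 13.3 and Paxip1 to 4.03 with medium.

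Other enzymes that write or remove H3K4 and H3K27 methylation gave the context, in lists chosen by function. Of 12 genes of the other H3K4 methyltransferase complexes, 2 rose and 3 fell with LPS + MSU in Ncoa6-sufficient cells, and 4 rose and 3 fell in Ncoa6-KO cells (median of the list 0.01 and 0.11, of all genes −0.12 and −0.07). Over all genes, 24.7% rose and 30.5% fell in Ncoa6-sufficient cells, and 25.2% and 27.9% in Ncoa6-KO cells. Kmt2a, which encodes MLL1, rose by 0.80 (SE 0.139, adjusted p = 4.69e-04) and Setd1b by 0.70 (SE 0.12, adjusted p = 4.29e-04) on the log2 scale. Setd1a fell by 0.54 and Hcfc1 by 0.30 in Ncoa6-sufficient cells. Members of this family thus moved in both directions, as the listed partners and genes at large did.

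Of 6 H3K4 demethylases, 3 rose and 2 fell in Ncoa6-sufficient cells, where 24.7% of all genes rose and 30.5% fell. Among them were Kdm5c at 1.14, Kdm1a at 0.64, Kdm1b at −1.09 and Kdm5b at −1.76 (log2). Kdm5b was the only gene of the 4 lists of chromatin enzymes that passed in the knockout with medium, where 1.88% of all genes passed. It stood at 0.83 (SE 0.168, adjusted p = 0.0363), with 227 and 263 normalized counts in Ncoa6-sufficient and 452 and 418 in Ncoa6-KO cells. In the list of H3K27 demethylases and Polycomb repressive complex 2, 3 of 9 genes rose and 4 fell with LPS + MSU in Ncoa6-sufficient cells (24.7% and 30.5% of all genes). Kdm6b, the relative of Kdm6a that LPS is known to induce, rose by 1.97 (SE 0.227, adjusted p = 1.97e-05), opposite to Kdm6a. Jarid2 stood at 1.60, Eed at −0.97 and Ezh2 at −1.20. Of 9 enhancer acetyltransferases and readers, 4 rose and 2 fell (24.7% and 30.5% of all genes), among them Brd2 at 1.60, Kat2b at 1.65, Med1 at 1.22 and Brd3 at −1.38. With total-count scaling the median gene of the Ncoa6-sufficient response stood at −0.78 in place of −0.12, so the direction of the smaller of these changes depends on the scaling.

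Cell cycle genes were also lower with LPS + MSU. Of 12 genes, all had log2 fold changes below 0 with LPS + MSU and 11 passed the test in each genotype. Among all genes, 30.5% were called lower in Ncoa6-sufficient and 27.9% in Ncoa6-KO cells. The median log2 fold changes of the 12 were −1.32 and −1.33, and in Ncoa6-sufficient cells they included Ccna2 (−2.43), Bub1 (−1.73), Birc5 (−1.61) and Mki67 (−1.91). Their summed level was 1984 to 2032 CPM with medium and 926 to 997 with LPS + MSU in Ncoa6-sufficient cells. In Ncoa6-KO cells it was 1602 to 1812 and 830 to 844. In the knockout, 3 of the 12 passed with medium (1.88% of all genes) and 4 with LPS + MSU (3.59%), each lower. The part of cell division in the falls of Paxip1, Wdr5 and Rbbp5 was not tested.

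For each gene, the gene with the most similar log2 CPM over the 8 libraries was sought among the 11218 other genes averaging 50 or more normalized counts. These correlations are descriptive, since the 8 points share 4 groups. They were Ahr for Kmt2c (Pearson's r = 0.996), Naip6 for Kmt2d (0.990), Kctd11 for Kmt2b (0.986), Jup for Kdm6a (0.995) and Zmym1 for Paxip1 (0.998). For the core they were Exosc5 for Wdr5 (0.998), Pdgfa for Rbbp5 (0.999), Parp2 for Ash2l (0.991) and Vcpkmt for Dpy30 (0.980). Paxip1 had 1824 genes with r over 0.95 and Kmt2c 576, whereas Pagr1a had 0, its closest being A330023F24Rik at 0.913.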

How the data were processed

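RNA-seq libraries were made by the authors from poly(A) RNA with a strand-specific kit and sequenced in pairs. Per the labels and methods, reads were aligned with STAR 2.7.3a to GRCm38 and quantified with RSEM 1.3.3, and the deposited values are expected counts per Ensembl gene, not normalized. Here they were rounded to whole numbers, genes whose counts summed to less than 10 were dropped, and edgeR 4.0.16 (R 4.3.3) was fitted to all 4 groups with TMM scaling and the quasi-likelihood test. Genes were called at a Benjamini-Hochberg adjusted p under 0.05. Normalized counts are counts divided by relative TMM size factors. Symbols, positions and exon lengths came from GENCODE M21, and promoter sequences from RefSeq. Totals of 25281955 to 33673552 counts per library set the precision, and PCR duplicates were not removed by molecular identifiers. Rbbp5 and Kmt2d have near-identical pseudogenes (Gm11977, Gm47184) with 0 counts, and Kmt2c shares 274 exonic bases with Gm42585 on the opposite strand. The members and lists were chosen with earlier results of these data known. Named genes were the members and Ncoa6, up to 4 called genes per list by smallest p, the closest gene to each member, overlapping genes and the sex genes. Alternatives were DESeq2 1.42.0, its size factors in edgeR, total-count scaling, other filters, limma-voom 3.58.1, a replicate block, only the 4 libraries compared, each library left out, and the Pagr1a locus summed. The code was tested on simulated data.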

Additional observations from a re-analysis of the deposited data

How the results depend on the processing

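The calls of Kmt2c, Paxip1, Wdr5 and Rbbp5 and of Kmt2d in the LPS + MSU response held under every alternative except total-count scaling for Kmt2c in Ncoa6-sufficient cells and for Kmt2d. Total-count scaling took Kmt2d to −0.056 in Ncoa6-sufficient cells, Ash2l to 0.032 and Dpy30 to 0.014 in the knockout effect with LPS + MSU, Kdm6a to 0.046 and Wdr5 to 0.0011 in the averaged knockout effect, and Rbbp5 to 0.023 in the interaction. DESeq2 and its size factors in edgeR took Wdr5 to −0.010 and −0.011 in the knockout effect with LPS + MSU, Kmt2d to −0.033 with either and Dpy30 to −0.032 and −0.031 in the interaction. The summed Pagr1a locus was at −0.039 in the averaged knockout effect and −0.63 in the Ncoa6-KO response. The cause was not tested. With 2 libraries per group, 4 residual degrees of freedom and 95% intervals as given for each gene, small differences cannot be seen, and Pagr1a is limited by its depth. The intervals also borrow from the spread of other genes. A library left alone in its group was assumed to vary like the other groups.

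Members called in the Ncoa6-sufficient response numbered 5 with DESeq2 and with its size factors. On total counts they numbered 8, with Kmt2b and Pagr1a called in place of Kmt2c and Kmt2d. In the averaged knockout effect, 1 member (Kmt2c) was called with total-count scaling, without a filter and with the replicate block. Without a filter 1152, 1611 and 2381 genes were called in the knockout effect with medium, with LPS + MSU and averaged, and 269 in the interaction, where DESeq2 called 43. With only the 4 libraries compared, 347 genes were called for the knockout effect with LPS + MSU.

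Replicate numbers were not treated as pairs, since no source used here ties a number to a mouse, also not for the medium and LPS + MSU libraries of 1 genotype. Same-numbered deviations correlated at 0.033 to 0.33 over the 6 pairs of groups, highest within genotype (0.257 and 0.334), which is a hint from the data and not from the design. With the replicate block across all groups, 1023, 1532 and 2479 genes were called in the 3 knockout comparisons and 86 in the interaction, and Kmt2c had an adjusted p = 0.0285 in the averaged effect. With the replicate block within each genotype the interaction had 444 genes, and the listed Pagr1a had an adjusted p = 0.0383 in the Ncoa6-KO response. Other settings moved the share of higher calls among all genes from 44.8% and 47.5% in the 2 responses to 51.3% and 51.2% with DESeq2 size factors and 20.6% and 21.4% on total counts.

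Leaving out 1 library at a time gave 22 to 351 genes for the knockout effect with medium, 49 to 454 with LPS + MSU, 534 to 1363 averaged and 0 to 16 for the interaction, with the lowest counts without the first Ncoa6-sufficient library of the condition compared (medium for the averaged effect), and 5 to 7 and 6 to 7 members called in the 2 responses. Values that changed sign in these fits ranged, for the knockout effect with medium, from −0.24 to 0.067 (Dpy30), −0.040 to 0.19 (Kdm6a), −0.058 to 0.15 (Kmt2d), −0.43 to 0.13 (Pagr1a) and −0.12 to 0.021 (Paxip1). With LPS + MSU they ranged from −0.017 to 0.13 (Kmt2d) and −0.13 to 0.15 (Wdr5), and averaged from −0.15 to 0.0048 (Dpy30), −0.069 to 0.049 (Kdm6a) and −0.12 to 0.028 (Wdr5). For the interaction they ranged from −0.13 to 0.18 (Dpy30), −0.035 to 0.18 (Kmt2c), −0.10 to 0.13 (Kmt2d), −0.28 to 0.049 (Ncoa6), −0.11 to 0.029 (Rbbp5) and −0.035 to 0.30 (Wdr5), and Pagr1a in the Ncoa6-sufficient response from −0.53 to 0.024.

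Levels per length with medium in Ncoa6-sufficient cells came to 5.44 (Kmt2b), 2.81 (Kmt2c), 4.29 (Kdm6a), 4.03 (Paxip1), 16.7 (Wdr5), 13.5 (Rbbp5), 13.3 (Ash2l) and 25.1 (Dpy30) with the longest coding transcript. On total counts they came to 5.95 (Kmt2b), 2.57 (Kmt2c), 2.83 (Kmt2d), 3.76 (Kdm6a), 2.84 (Paxip1), 16.6 (Wdr5), 14.4 (Rbbp5), 6.08 (Ash2l) and 21.4 (Dpy30).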
